A study of Mus musculus with 6 samples.

Results

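The Smads and the genes that restrain TGFβ signalling were followed through epithelial-mesenchymal plasticity of EpH4, a near-normal mouse mammary epithelial cell line. The 10 genes were taken by symbol from the deposited table of 17428 genes and comprise the receptor-regulated Smads *Smad2* and *Smad3*, the common partner *Smad4*, the inhibitory Smads *Smad6* and *Smad7*, the ubiquitin ligases *Smurf1* and *Smurf2*, the nuclear corepressors *Ski* and *Skil*, and the membrane inhibitor *Pmepa1*. All 10 were found and all passed the filter on low values. E cells were never exposed to TGFβ1, M cells were grown with TGFβ1 for 7 days, and RE cells were M cells kept for another 4 days in medium without it. All groups share the same line and the same base medium with serum and insulin, and each is represented by 2 libraries described as biological replicates in the methods. The cytokine was added to cultures of a single line and withdrawn from them, and its dose is not given in the sources used here.

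As background, TGFβ binds a pair of receptor kinases, and the type I receptor phosphorylates Smad2 and Smad3 at the C-terminal tail. These join Smad4, enter the nucleus and regulate transcription. The pathway limits itself through genes that Smads are known to induce in epithelial cells. Smad7 and Smad6 occupy the receptor and recruit Smurf ligases, Ski and SnoN (the product of *Skil*) repress Smad complexes on DNA, and Pmepa1 sequesters receptor-regulated Smads in membranes.

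The difference between a receptor-regulated and an inhibitory Smad can be read at the end of the coding sequence. That end is shown here for *Smad3* and *Smad6*, which had the widest intervals among the Smads of the 10 genes in the comparisons that follow. The last 60 coding bases of the longest coding transcript in GENCODE vM21 are given, with the last 5 codons, stop included, in capitals. In *Smad3* the capitals include the serine codons that the receptor is known to phosphorylate, a tail that inhibitory Smads lack.
Smad3: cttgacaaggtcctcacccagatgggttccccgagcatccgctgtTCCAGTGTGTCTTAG
Smad6: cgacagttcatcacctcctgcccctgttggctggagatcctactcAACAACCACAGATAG

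The values are coverage (the bases sequenced over each gene, added up), given here as ppm of the TMM-scaled total of a library. The libraries held between 35782500 and 47928600 reads' worth of 50 bases, and the 10 genes had between 152 reads' worth (*Smad6* in the second E library) and 23116 (*Pmepa1* in the first M library). The spread between replicates was widest in the E cells, where the log2 differences between the 2 libraries had an SD of 0.56 over genes, and 0.32 in M and 0.31 in RE. Luminal epithelial markers were present in all groups. Their sums over 6 markers were 1514 to 1860 ppm in E, 1305 to 1345 in M and 845 to 893 in RE cells. Of these, *Krt19* was at most 0.162 ppm and was not tested. *Cldn7* and *Tacstd1* (*Epcam*) were called lower in M than in E cells (limma, −1.89 and −1.26, adjusted p = 6.24e-05 and 0.000621), and *Krt8* was higher by 0.67 but not called. *Cldn7*, *Tacstd1* and *Krt18* were called lower in RE than in E cells (limma, −1.32, −1.23 and −1.34, adjusted p = 0.000827, 0.00153 and 0.00305). *Krt8* was called lower in RE than in M cells (limma, −1.32, adjusted p = 0.000529). The 3 basal markers summed to 305 to 374 ppm in the E, 711 to 810 in the M and 495 to 497 in the RE cells, with *Krt14* called higher in M than in E cells (limma, 1.42, adjusted p = 0.00094) and lower in M vs. RE (−1.10, adjusted p = 0.00364), and *Trp63* called higher in the RE cells against both others (1.25 and 1.74, adjusted p = 0.00346 and 0.000502). Of 4 leukocyte markers, *Ptprc* and *Emr1* (*Adgre1*) had less than 0.1 ppm in every library, and the summed level was 6.80 to 10.5 ppm in the E, 33.1 to 36.8 in the M and 7.27 to 7.43 in the RE cells, most of the M value being *Csf1r*. Of 3 endothelial markers, *Kdr* was at most 0.0694 ppm in any library, and the sum was 0.180 to 0.306 ppm in the E, 2.56 to 2.62 in the M and 0.409 to 0.412 in the RE cells. Most of the M value was *Cdh5*, which was listed at 0 in both E libraries, at 2.33 and 2.07 ppm in the M and at 0.0423 and 0.0910 ppm in the RE libraries. The 3 fibroblast markers in the table, *Pdgfra*, *Dcn* and *Col1a1*, summed to 50.5 to 51.4 ppm in the E, 472 to 585 in the M and 280 to 367 in the RE cells. Most of each sum was *Col1a1*, with means of 32.2, 497 and 236 ppm. *Pdgfra* (means of 18.4, 31.5 and 84.1 ppm) and *Dcn* (0.399, 0.0034 and 2.77 ppm) were instead highest in the RE cells. *Dcn* was at or below 0.00679 ppm in both M libraries. The part of these shifts in the results was not tested. In such bulk samples, fewer cells of a kind and less RNA per cell cannot be told apart.

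TGFβ1 target genes served as a check of the treatment. *Tgfbi*, a secreted matrix protein named for its induction by TGFβ, was at 0.532 and 0.286 ppm in the E, 4.57 and 4.91 in the M and 0.233 and 0.296 in the RE libraries, with log2 fold changes of 3.29 in E vs. M and −3.74 in M vs. RE (adjusted p = 0.000241 and 0.000153 by limma). *Junb*, an AP-1 subunit known as an early target, had a log2 fold change of −0.44 from E to M cells (limma, adjusted p = 0.0807) and of 0.63 from M to RE cells (limma, adjusted p = 0.0307).

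In the M cells, 3 of the 10 genes were raised, all from the negative regulators that make up most of the list. *Skil* was raised 4.34-fold, *Pmepa1* 2.77-fold and *Smurf2* 2.69-fold in the means, and 0 were lowered by the same limma test. A gene was called when its log2 fold change exceeded 1 in size with a Benjamini-Hochberg adjusted p below 0.01 over the 13893 genes tested, and 8.58% of those genes were called higher and 8.39% lower in this comparison. At an adjusted p below 0.05 with no fold threshold, 7 of the 10 were higher and 0 lower, against 21.5% and 19.9% of all genes tested. At an unadjusted p below 0.05 the count was also 7. The M libraries lay above both E libraries for 7 genes and below them for 0, where 35.5% and 35% of all genes were so placed. The median log2 fold change was 0.70 over the 10 genes and 0.00135 over all genes tested.

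In the RE cells against the M cells, 3 genes were lowered and 0 raised by limma, namely *Pmepa1*, *Skil* and *Smad7*, whose means were 3.25, 2.91 and 2.64 times as high in the M cells. Among all genes tested 4.79% were called lower and 8.08% higher in the RE cells. At an adjusted p below 0.05 without a fold threshold, 5 genes were lower and 0 higher, against 14.6% and 17% of all genes, and at an unadjusted p below 0.05 the count was 8 of 10. The groups did not overlap for any of the 10 genes, with 8 lower and 2 higher in the RE cells, where 40.2% and 37.9% of all genes were so placed. The median log2 fold change was −0.60, against −0.02 for all genes.

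In E vs. RE, limma called 0 of the 10 genes in either direction, where 6.2% of all genes were called higher and 3.17% lower. At an adjusted p below 0.05 without a fold threshold, *Smad6* and *Ski* were higher and *Smad7* lower (17.2% and 12.9% of all genes), and at an unadjusted p below 0.05 there were 6 genes. The RE libraries lay above both E libraries for 6 genes and below them for 3 (34.2% and 32.5% of all genes). The comparisons share libraries, so the values for each gene are given side by side without a test of one comparison against another.

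**Figure D1:**
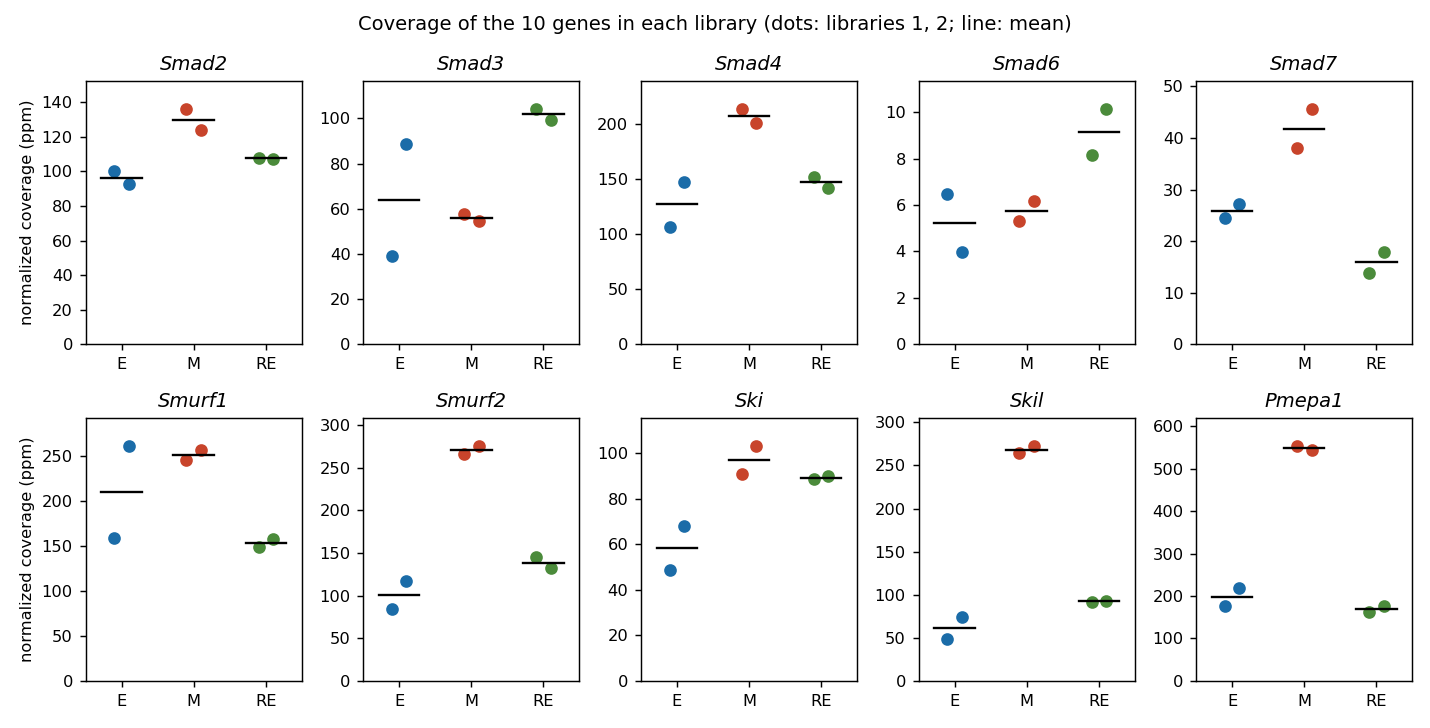
Normalized coverage in ppm (vertical axis, from 0, scaled for each gene) of the 10 genes in the E, M and RE cells, with a dot for each of the 2 libraries of a group and a line for their mean. *Skil*, *Pmepa1* and *Smurf2* stand highest in both M libraries, *Smad7* is lowest in both RE libraries, and the 2 E libraries lie far apart for *Smad3*.

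*Smad2*, a receptor-regulated Smad, was at 100.1 and 92.5 ppm in the E libraries, 136 and 124 in the M libraries and 108 and 107 in the RE libraries. The groups did not overlap, with the M cells highest and the E cells lowest. The log2 fold change in E vs. M was 0.43 (limma, adjusted p = 0.0282, standard error 0.13), −0.27 in M vs. RE (95% interval −0.57 to 0.02), and 0.16 in E vs. RE (−0.13 to 0.45). Both comparisons with the E cells changed sign, to −0.04 for the M and −0.32 for the RE cells, in a fit with the dependence on GC content and transcript length taken out of every library.

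*Smad3*, the other receptor-regulated Smad, was at 38.9 and 88.8 ppm in the E libraries, 57.5 and 54.5 in the M libraries and 104 and 99.4 in the RE libraries. Both RE libraries lay above all others, while the M libraries fell between the 2 E libraries, which differed 2.28-fold. *Smad3* was not called in any comparison. Its log2 fold change was −0.07 in E vs. M (95% interval −0.84 to 0.70), 0.86 in M vs. RE (0.09 to 1.63, adjusted p = 0.0853 by limma) and 0.79 in E vs. RE (0.02 to 1.56, adjusted p = 0.108). The E vs. RE value was 1.39 without the second E library and 0.20 without the first. In E vs. M the sign turned with the library left out, from 0.50 without the second E library to −0.66 without the first. The M vs. RE value was 0.86 without the first and 0.89 without the second E library. The fit pools the spread of all groups, so the M vs. RE interval and p-value also carry the gap between the E libraries.

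*Smad4*, the common partner of both branches of the pathway, was at 107 and 148 ppm in the E, 214 and 201 in the M and 152 and 142 in the RE libraries. The M libraries stood above all others, and the E and RE libraries overlapped. Its mean was 1.63 times as high in the M as in the E cells, or 0.72 on the log2 scale (limma, adjusted p = 0.013, standard error 0.17), short of both thresholds. It was −0.49 in M vs. RE (adjusted p = 0.0634 by limma) and 0.23 in E vs. RE (95% interval −0.17 to 0.63).

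*Smad6*, an inhibitory Smad that is known above all for restraining BMP signals, was the lowest of the 10 genes, at 6.46 and 3.96 ppm in the E, 5.33 and 6.18 in the M and 8.15 and 10.1 in the RE libraries. The RE libraries were highest, and the M libraries lay within the range of the E libraries. The log2 fold change was 0.18 in E vs. M (95% interval −0.43 to 0.79), 0.65 in M vs. RE (0.04 to 1.26, adjusted p = 0.0979 by limma) and 0.83 in E vs. RE (0.22 to 1.44, adjusted p = 0.0482). The last ran from 0.49 without the second E library to 1.18 without the first.

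*Smad7*, the inhibitory Smad that blocks the TGFβ receptor, was at 24.5 and 27.3 ppm in the E, 38.1 and 45.6 in the M and 13.8 and 18.0 in the RE libraries. No groups overlapped, and the order was RE, E, M from low to high. It was the 1 gene of the 10 with an adjusted p below 0.05 in all 3 comparisons. The log2 fold change was 0.69 in E vs. M (limma, adjusted p = 0.0196, standard error 0.18), −1.40 in M vs. RE (adjusted p = 0.00114), which was called, and −0.71 in E vs. RE (95% interval −1.14 to −0.29, adjusted p = 0.0232). The M vs. RE call was lost, with values from −1.53 to −1.21, without the first M library (adjusted p = 0.0107 by limma), the second M library (0.0201) or the first RE library (0.0185).

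The Smurf ligases attach ubiquitin to Smads and, brought by Smad7, to the TGFβ receptor. *Smurf1* was at 159 and 262 ppm in the E, 246 and 257 in the M and 149 and 158 in the RE libraries. The M libraries fell within the range of the E libraries, and the RE libraries were lowest, the higher of them just below the lower E library. Its log2 fold change was 0.30 in E vs. M (95% interval −0.21 to 0.82), −0.71 in M vs. RE (limma, adjusted p = 0.044, standard error 0.22) and −0.41 in E vs. RE (−0.93 to 0.10).

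*Smurf2* was at 84.3 and 117 ppm in the E, 267 and 276 in the M and 145 and 133 in the RE libraries. No groups overlapped, with the RE cells between the others and nearer to the E cells. The rise in E vs. M was called at 1.45 (limma, adjusted p = 0.000641, standard error 0.17), but not without the first or the second M library (adjusted p = 0.0104 and 0.0113). In M vs. RE it was −0.97 (adjusted p = 0.00505 by limma), just outside the fold threshold, and −1.02 and called in the fit corrected for GC content and length. In E vs. RE it was 0.48 (95% interval 0.08 to 0.88, adjusted p = 0.0713 by limma).

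The start regions of the paralogues *Smurf1* and *Smurf2* are shown because the M libraries stood apart from the E libraries for *Smurf2* and not for *Smurf1*. They are the 250 bases before the RefSeq start on GRCm38.p6, a newer build than the one the reads were mapped to, at chr5:144965831-144966080 (minus strand) and chr11:106920716-106920965 (minus strand). Capitals mark the letters CAGAC or their reverse complement GTCTG, the core of the sequence that Smad3 and Smad4 are known to bind.
Smurf1: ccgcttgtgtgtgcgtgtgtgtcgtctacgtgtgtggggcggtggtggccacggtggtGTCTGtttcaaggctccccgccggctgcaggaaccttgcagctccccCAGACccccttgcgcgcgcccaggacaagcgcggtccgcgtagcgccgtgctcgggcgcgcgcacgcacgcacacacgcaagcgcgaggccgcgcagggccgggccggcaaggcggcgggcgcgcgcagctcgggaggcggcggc
Smurf2: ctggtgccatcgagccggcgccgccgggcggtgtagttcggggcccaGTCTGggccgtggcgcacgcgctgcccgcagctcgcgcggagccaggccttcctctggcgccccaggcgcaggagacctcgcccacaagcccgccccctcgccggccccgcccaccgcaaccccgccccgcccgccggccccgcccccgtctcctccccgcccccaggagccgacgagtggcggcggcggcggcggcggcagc

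The motif occurred at 2 places in the *Smurf1* window and at 1 in the *Smurf2* window, and at 0 in those of *Smad3*, *Smad6* and *Ski*, the other members with an entry. It is common, being present on either strand in 42.2% of 32851 windows of the same length, and a match is a description of letters and not of binding. The windows were rich in G and C, with 74.8% for *Smurf1* and 82% for *Smurf2*.

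*Ski*, a corepressor named for the avian retroviral oncogene, was at 48.7 and 68.0 ppm in the E, 90.7 and 103 in the M and 88.6 and 89.9 in the RE libraries. Both M and both RE libraries lay above the E libraries, and M and RE lay side by side without overlap. The log2 fold change was 0.75 in E vs. M (limma, adjusted p = 0.013, standard error 0.18), −0.12 in M vs. RE (95% interval −0.53 to 0.30) and 0.63 in E vs. RE (adjusted p = 0.0333), none of which met both thresholds. With library totals in place of TMM, the M vs. RE value turned to 0.09.

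*Skil*, whose product SnoN is the corepressor that TGFβ first degrades and then induces, was at 48.9 and 74.7 ppm in the E, 264 and 273 in the M and 91.1 and 93.2 in the RE libraries. No groups overlapped, and the RE libraries were above the E libraries and far below the M libraries. It had the largest rise of the 10 genes in E vs. M, 2.15 on the log2 scale (95% interval 1.69 to 2.61, adjusted p = 0.000186 by limma), at percentile 97.2 of all genes tested. In M vs. RE it was −1.54 (adjusted p = 0.00109 by limma), a call that was lost without any 1 of the M or RE libraries (adjusted p from 0.0149 to 0.0185, values from −1.56 to −1.52). In E vs. RE it was 0.61 (95% interval 0.15 to 1.07, adjusted p = 0.0522 by limma), and 0.15 in the fit corrected for GC content and length.

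*Pmepa1*, whose product binds Smad2 and Smad3 away from the receptor, was at 178 and 219 ppm in the E, 554 and 544 in the M and 163 and 175 in the RE libraries. The M libraries were far above the others, and both RE libraries lay just below both E libraries. It was called in E vs. M at 1.48 (95% interval 1.14 to 1.82, adjusted p = 0.000258 by limma) and in M vs. RE at −1.70 (−2.04 to −1.36, adjusted p = 0.000153). These 2 calls held under every alternative that was run. In E vs. RE the log2 fold change was −0.22 (95% interval −0.56 to 0.12, adjusted p = 0.278 by limma).

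**Figure D2:**
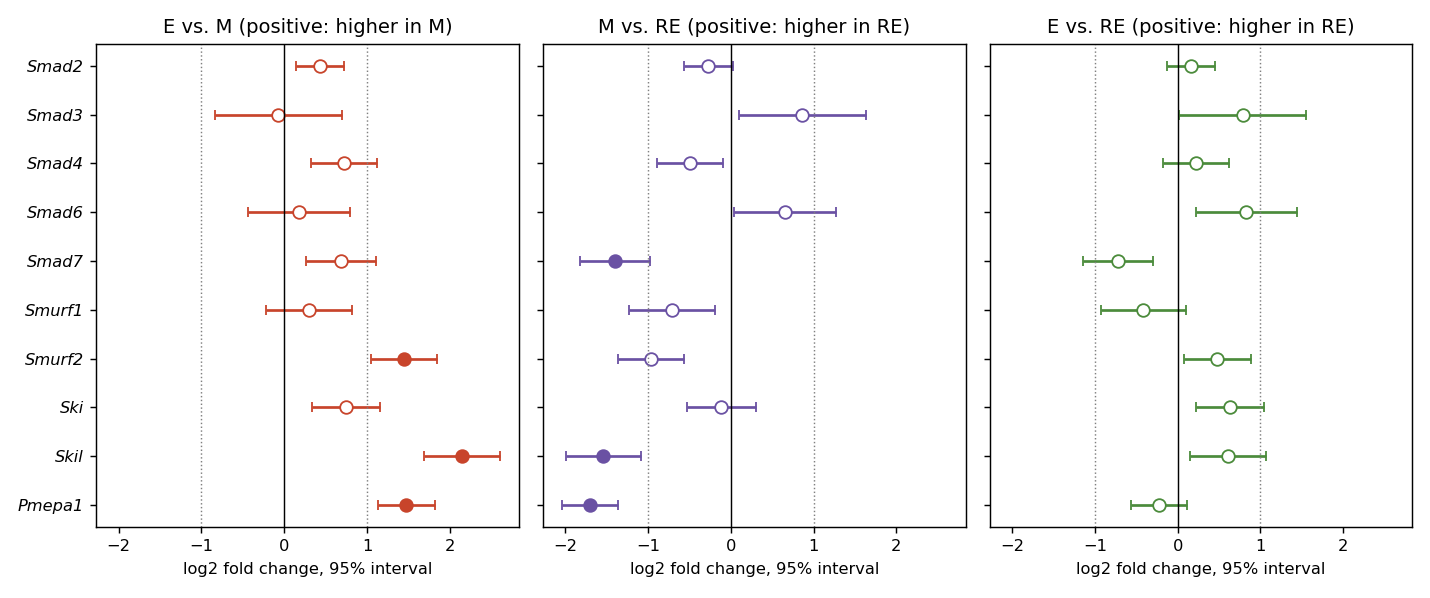
Log2 fold changes with 95% intervals from limma for the 10 genes in E vs. M, M vs. RE and E vs. RE (filled dots: called, open dots: not called, dotted lines: the fold threshold). *Smurf2*, *Skil* and *Pmepa1* are filled in E vs. M, *Smad7*, *Skil* and *Pmepa1* in M vs. RE, and no gene is filled in E vs. RE.

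The E libraries differed in one direction for most of these genes. The second E library was higher than the first for 8 of the 10 genes (48.3% of all genes tested), all but *Smad2* and *Smad6*, and 4 of the 10 differed more than 1.5-fold, as did 25.9% of all genes. In the M and the RE cells 0 of the 10 differed that much (7.22% and 6.54% of all genes). The *Smad3* difference of 1.19 on the log2 scale was at percentile 95.7 of all genes by size. Over 12973 genes with an annotated length, the difference between the second and the first E library correlated with the length of the longest transcript at Spearman's rho of 0.42, against 0.07 in the M and −0.16 in the RE cells. All points share the same pair of libraries, and the part of length in the results was not tested beyond the fit without its trend.

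**Figure D3:**
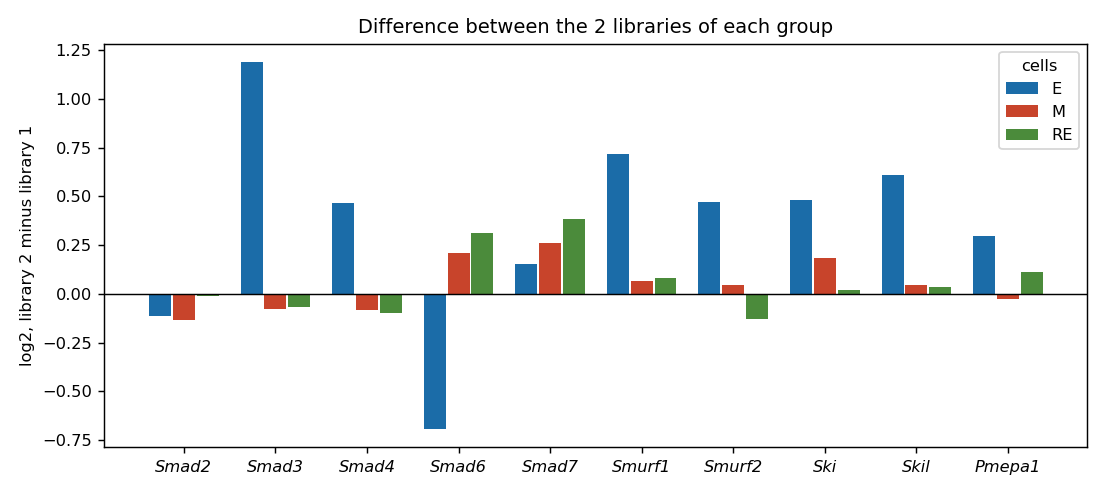
Log2 difference of the second from the first library (vertical axis, bars from 0) for each of the 10 genes in the E, M and RE cells. The E bars are the longest for 8 genes, reaching 1.19 for *Smad3*, the exceptions being *Smad2* and *Smad7*.

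Levels of different genes were compared per kilobase of exon (union of exons in GENCODE vM21, a newer annotation than the one used for mapping). In the E cells *Pmepa1* was highest at 40.3 ± 5.87 ppm per kb (SD, n = 2), followed by *Smad4* at 34.3 ± 7.79 and *Smurf1* at 33.2 ± 11.4, which did not differ beyond the range of their libraries. *Smurf2* (16.3 ± 3.76), *Smad3* (11.5 ± 6.36), *Smad2* (10.97 ± 0.616) and *Ski* (10.5 ± 2.45) overlapped with their neighbours in that order. *Skil* (6.38 ± 1.88) and *Smad7* (5.73 ± 0.424) overlapped as well, and *Smad6* was lowest at 1.63 ± 0.551. Among the Smads of the 10 genes, the common Smad4 message was thus the most abundant and those of the inhibitory Smads the least. The BMP-pathway Smads were not ranked per kilobase.

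In the M cells *Pmepa1* was at 112 ± 1.48 ppm per kb, above *Smad4* at 55.9 ± 2.33, *Smurf2* at 44.0 ± 1.03, *Smurf1* at 39.7 ± 1.25 and *Skil* at 27.7 ± 0.629. Of all neighbours in this order, *Smad3* (10.1 ± 0.39) and *Smad7* (9.25 ± 1.17) were the 1 pair whose libraries overlapped. In the RE cells *Smad4* was first at 39.7 ± 1.92 and *Pmepa1* second at 34.4 ± 1.86, *Smad3* stood after the Smurfs at 18.4 ± 0.59, and *Smad7* (3.51 ± 0.659) and *Smad6* (2.85 ± 0.438) overlapped at the bottom. With the longest transcript as the length, *Smurf1* and *Smad4* exchanged places in the E cells, as did *Skil* and *Smad2* in the RE cells.

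**Figure D4:**
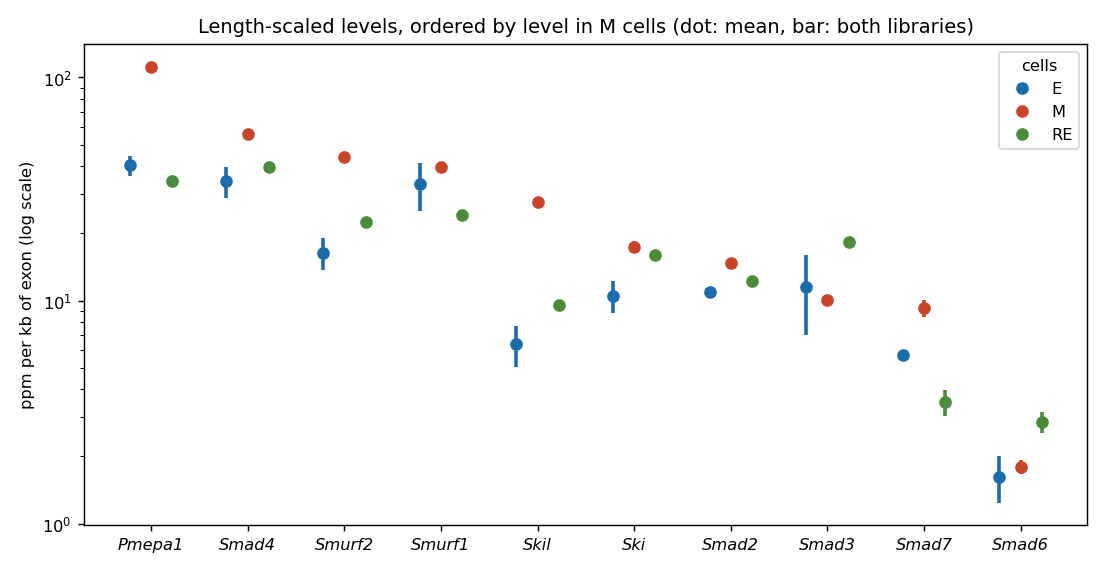
Coverage per kilobase of exon (log scale) of the 10 genes, ordered by their level in the M cells, with a dot for the mean and a bar from the lower to the higher of the 2 libraries in the E, M and RE cells. *Pmepa1* is highest in the M cells at 112 ppm per kb and *Smad6* is lowest in each group.

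Genes with the most similar profiles were found by the Euclidean distance of mean-centred log2 values over the 6 libraries. The 3 nearest to *Skil* were *Lass6* (distance 0.13), a ceramide synthase, *Zyx* (0.20), which encodes the focal adhesion protein zyxin, and *Fbln2* (0.23), the matrix protein fibulin-2. *Zyx* was at 241 ± 46.2 ppm in the E, 1053 ± 40.9 in the M and 342 ± 9.19 in the RE cells (SD, n = 2). Those nearest to *Pmepa1* were *Bmper* (0.21), a secreted BMP modulator, *Trim6* (0.23) and *Pdlim7* (0.25), and *Bmper* was at 18.4 ± 2.15, 54.5 ± 7.57 and 16.5 ± 1.17 ppm. For *Smad7* they were *Abcb1b* (0.21), a drug efflux transporter, *Rph3al* (0.23) and *Fpr1* (0.26). For *Smad3* they were *Ggn* (0.08), *Rere* (0.24) and *Kif13b* (0.24), which differed 2.52-, 2.67- and 2.22-fold between the E libraries, so that this likeness includes the gap between those libraries.

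The other genes of the pathway were counted in lists that hold 76 genes, of which 73 were tested. Those called numbered 21 higher and 3 lower in E vs. M, 6 higher and 12 lower in M vs. RE, and 14 higher and 3 lower in E vs. RE. As shares of the 73 these are 28.8% and 4.11%, 8.22% and 16.4%, and 19.2% and 4.11%, beside 8.58% and 8.39%, 8.08% and 4.79%, and 6.2% and 3.17% of all genes tested. The medians of their log2 fold changes were 0.46, −0.10 and 0.34, beside 0.00135, −0.02 and 0.00787 for all genes tested. Without the first or the second RE library 0 were called in E vs. RE, and 8 without either M library and 30 without the second E library. Without the first or the second M library 12 and 13 were called in E vs. M, and without any 1 of the M or RE libraries 9 to 11 were called in M vs. RE.

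The BMP-pathway Smads share *Smad4* with the TGFβ branch. *Smad5* was raised from 46.5 ppm in E to 140 in M (limma, 1.63 on the log2 scale, adjusted p = 0.00119) and was at 97.6 in the RE cells, where it just missed the call against the E cells (1.11, adjusted p = 0.0101). *Smad1* was at 49.6, 68.9 and 68.3 ppm and was not called, and *Smad9* was close to the detection floor of 3 reads' worth in the E and M cells, at 0.0231 to 0.178 ppm in their libraries, and at 0.335 and 0.368 ppm in the RE libraries. All 3 were higher in the RE than in the E cells at an adjusted p below 0.05 by limma, with *Smad1* at 0.46 (adjusted p = 0.0296) and *Smad9* at 1.51 (adjusted p = 0.0356).

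Of the ligands, *Tgfb2* and *Tgfb1* were raised in E vs. M (log2 fold changes 1.502 and 1.05, adjusted p = 0.000223 and 0.00124 by limma), and *Tgfb3* was raised in M vs. RE (1.73, adjusted p = 8.29e-05). With library totals *Tgfb1* was at 0.75 and not called. In E vs. RE *Tgfb2* and *Tgfb3* were higher (1.46 and 1.22, adjusted p = 0.000734 and 0.000962 by limma). Of the 8 receptors and coreceptors, 3 were raised and 1 lowered in E vs. M (37.5% and 12.5%, beside 8.58% and 8.39% of all genes). *Acvrl1* had the largest of these changes, 3.18 (adjusted p = 0.000763 by limma), and fell in M vs. RE (−2.50, adjusted p = 0.00285). Its coverage was low. It was at or below the detection floor in both E libraries, at 1.31 and 1.18 ppm in the M and 0.0847 and 0.205 ppm in the RE libraries. The largest changes on well-covered genes were those of *Acvr1*, a BMP type I receptor, at 2.08 (adjusted p = 0.000183 by limma) and *Eng*, the coreceptor endoglin, at 1.79 (adjusted p = 6.15e-05), while *Tgfbr3*, the coreceptor betaglycan, fell by 1.39 (adjusted p = 0.00118) and was raised in M vs. RE by 3.11 (adjusted p = 3.66e-05). In E vs. RE *Tgfbr3* and *Acvr1* were higher (1.72 and 1.49, adjusted p = 0.00114 and 0.00185 by limma). *Tgfbr2*, the type II receptor, was at 128 ppm in the E, 131 in the M and 270 in the RE cells and was called in both comparisons with the RE cells (limma, log2 fold changes of 1.09 in E vs. RE with adjusted p = 0.00438 and 1.04 in M vs. RE with adjusted p = 0.00381). Its E vs. M value of 0.05 changed sign with library totals (−0.25) and in the fit corrected for GC content and length (−0.38), and with the latter it was no longer called in E vs. RE (0.63), nor with library totals (0.998). *Tgfbr1*, the type I receptor, was not called in any comparison, with log2 fold changes of 0.30, 0.13 and 0.43.

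Among 14 adaptors and nuclear partners tested, *Runx1* and *Med15* were raised in E vs. M (1.21 and 1.22, adjusted p = 0.00107 and 0.0082 by limma), *Runx1* was lowered in M vs. RE (−1.25, adjusted p = 0.00112), and *Runx2* and *Dab2* were raised in E vs. RE (2.07 and 1.76, adjusted p = 0.00337 and 0.000418). A further list held 23 regulators of Smad activity and turnover, in which inhibitors stand beside genes known to promote the pathway, such as the ligase *Rnf111* and the deubiquitinases *Usp4*, *Usp9x*, *Usp11* and *Usp15*. Of these 23, 3 were raised and 1 was lowered in E vs. M, shares of 13.0% and 4.35% beside 8.58% and 8.39% of all genes. *D18Ertd653e* (*Ldlrad4*), a relative of *Pmepa1* that also binds Smads, was raised by 1.60 (adjusted p = 0.000923 by limma). *Usp9x*, which removes ubiquitin from Smad4 and so favours its activity, was raised by 1.40 (adjusted p = 0.000454) and *Fkbp1a*, which binds the type I receptor, by 1.01 (adjusted p = 0.00221), while *Nr4a1*, a nuclear receptor, fell by 1.06 (adjusted p = 0.00259). In M vs. RE *Nr4a1* was raised by 2.00 (adjusted p = 0.000161 by limma) and *Fkbp1a* fell by 1.10 (adjusted p = 0.00194), and in E vs. RE *Usp9x* and *Wwp2* were higher (1.14 and 1.11, adjusted p = 0.00237 and 0.00132). In the fit corrected for GC content and length, *Usp9x* was at 0.88 in E vs. M and 0.61 in E vs. RE, *Runx1* at 0.87 and *Nr4a1* at −0.88 in E vs. M, and *Wwp2* at 0.96 in E vs. RE, all under the fold threshold. With library totals, the E vs. M calls of *Med15* (0.92), *Runx1* (0.91) and *Fkbp1a* (0.71) and the M vs. RE call of *Fkbp1a* (−0.90) were lost.

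Of 22 TGFβ1 target genes tested, 10 were raised and 1 was lowered in E vs. M, 2 were raised and 9 lowered in M vs. RE, and 5 were raised and 3 lowered in E vs. RE. These are 45.5% and 4.55%, 9.09% and 40.9%, and 22.7% and 13.6% of the list, against the shares of all genes given above. The 1 lowered in E vs. M was *Myc* (−1.83, adjusted p = 0.000383 by limma). The 2 raised in M vs. RE were *Id2* and *Id3* (2.74 and 1.41, adjusted p = 0.000337 and 0.00162 by limma). Those raised in E vs. M included, beside *Tgfbi*, the integrin chain *Itgav* (3.21, adjusted p = 8.28e-05 by limma) and *Ltbp2* (2.51, adjusted p = 0.000158). *Ctgf*, the matricellular gene now named *Ccn2*, rose from E to M cells (limma, 2.13, adjusted p = 7.96e-05) and fell from M to RE cells (−3.58, adjusted p = 1.26e-05). It was lower in RE than in E cells (limma, −1.44, adjusted p = 0.00119), as were *Myc* (−1.26, adjusted p = 0.0039) and *Cdkn1a* (−1.16, adjusted p = 0.00208). *Id2* and *Id3*, which are known as BMP targets, were raised in the RE cells against the E cells (1.88 and 1.73, adjusted p = 0.00315 and 0.00122 by limma). The other genes of the list called higher in the RE than in the E cells were *Itgav* (1.62, adjusted p = 0.0035 by limma), *Snai1* (1.56, adjusted p = 0.00275) and *Ltbp2* (1.28, adjusted p = 0.00579), the last of which was at 0.96 in the fit corrected for GC content and length.

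**Figure D5:**
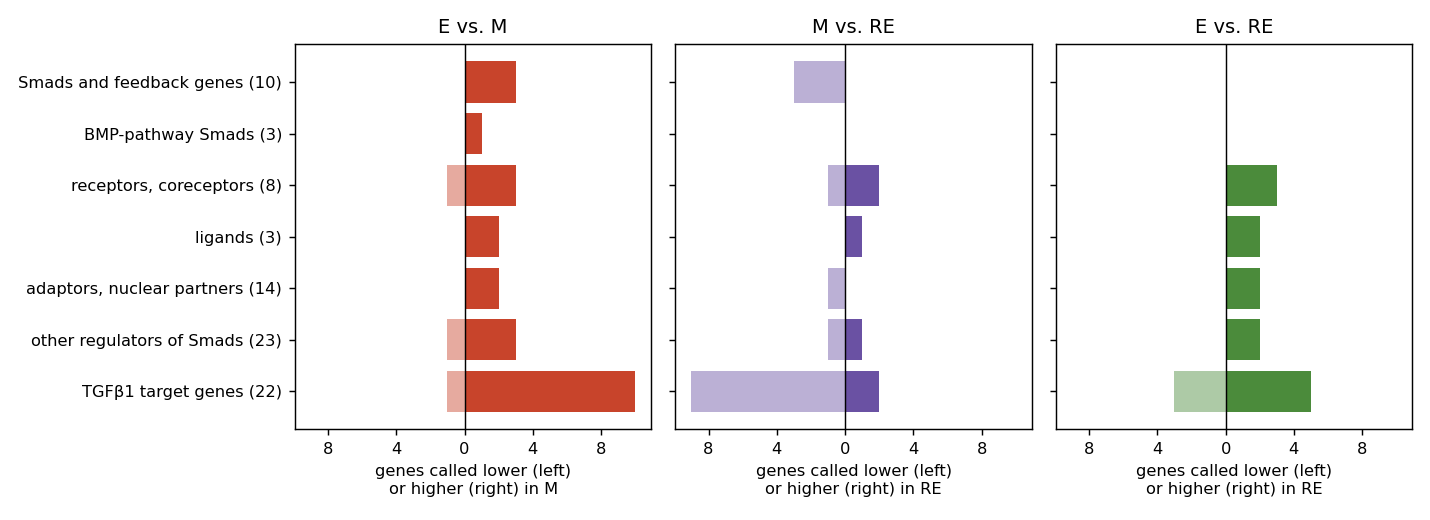
Number of genes called lower (left, pale) or higher (right) in each comparison for the 10 genes and for each list of other pathway genes, with the number tested in brackets. The 10 genes have 3 called higher in E vs. M, 3 called lower in M vs. RE, 0 called in E vs. RE, while the TGFβ1 target genes have 10 higher in E vs. M and 9 lower in M vs. RE.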

How the data were processed

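RNA from E, M and RE cells was sequenced on an Illumina Genome Analyzer, with 2 libraries per group (the labels speak of RNA from 3 biological replicas, the methods of 2). Bowtie and TopHat2 placed unique reads on NCBI-m37. The authors deposited 1 table of unnormalized values by gene symbol, handled here as coverage (signal): between 44.8% and 48.4% of the values from 1 to 400 in each library are multiples of 50. The step that summed them, its annotation and its use of strand are not given in the sources used here. In GENCODE vM21, *Smurf2* shares 58 exonic bases with a miRNA gene and the other 9 genes share none with another gene.

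Values were scaled by TMM without weights (30% of log ratios and 5% of levels trimmed at each end) to ppm. Genes had to reach 500 bases in 2 or more libraries, and the 13893 that did were tested with limma 3.58.1 in R 4.3.3 on log2(ppm + 0.1), all 6 libraries in 1 fit, group only, with a trend on mean expression and Benjamini-Hochberg adjustment. On this scale the change of genes with low coverage is understated. The test named in the study's methods needs read counts and was not used. Log2 fold changes are positive where the second group named is higher. The p-values measure the spread between these libraries only. This spread was pooled over the groups, so an interval or p-value for M vs. RE also carries the spread of the E libraries. The floor was 3 reads' worth (150 bases), which covers counting error only.

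The genes and lists were chosen with earlier results of these data known. Those named outside the 10 genes were the called genes of a list, up to 4 per list and comparison by size of change, the 3 nearest profiles of *Smad3*, *Smad7*, *Skil* and *Pmepa1*, and *Tgfbi* and *Junb* as checks of the treatment. One named gene is not reported here. *Smad1*, *Smad9*, *Tgfbr1*, *Csf1r* and the other single markers were picked as examples after their values were seen. *Myc* and *Cdkn1a* were named to complete the target genes called lower in E vs. RE. *Myc* and *Id3* were also named to complete those called lower in E vs. M or higher in M vs. RE. Older symbols were matched through RefSeq synonyms for 6 genes of the lists and marker sets, and 2 were not matched.

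Alternatives were median-of-ratios factors, library totals, no filter, the filter in every library, pseudocounts of 0.025 and 1, only the 2 groups compared, the replicate number as a block, array weights, no trend, other thresholds, and leaving out each library. A correction for GC content and transcript length, fitted in each library (matched for 93.4% of genes tested), with and without the block, was added after seeing the data. The fit was tested on simulated data.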

Additional observations from a re-analysis of the deposited data

How the results depend on the processing

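The log2 fold changes of the 10 genes in the 3 comparisons were recomputed under 18 other settings, 540 values in all, of which 516 kept their direction and their side of the thresholds, 9 lost a call, 4 gained one and 11 changed sign. With an adjusted p below 0.05 and no fold threshold, the calls numbered 7 for E vs. M, 5 for M vs. RE, 3 for E vs. RE. With both thresholds, which gave 3, 3 and 0, leaving out 1 library at a time gave 2 to 3 for E vs. M, 1 to 3 for M vs. RE (1 without either M library or the first RE library) and 0 to 1 in E vs. RE (1 without either E library), with fewer residual degrees of freedom and the lone library of a group assumed to vary like the others. For the other pathway genes these ranges were 12 to 33, 9 to 20 and 0 to 30, the lowest in E vs. RE being without either RE library, and 6 were called in E vs. RE with only the 2 groups compared and 11 without the trend on mean expression.

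Library totals moved the median over all genes to −0.29 for E vs. M (0.00135 with TMM) and to 0.18 for M vs. RE (−0.02 with TMM), and with them *Smad6* (−0.12), *Smurf1* (−0.00043) and *Tgfbr2* (−0.25) changed sign in E vs. M and *Ski* (0.090) and *Tgfb2* (0.16) in M vs. RE. In the fit corrected for GC content and transcript length, *Smad2* changed sign in E vs. M (−0.038) and E vs. RE (−0.32), *Tgfbr2* in E vs. M (−0.38) and *Fkbp1a* in E vs. RE (0.068), with the same values under the block. Without 1 library at a time, values that crossed 0 ran from −0.66 to 0.50 for *Smad3*, −0.19 to 0.52 for *Smad6*, −0.057 to 0.64 for *Smurf1* and −0.20 to 0.27 for *Tgfbr2* in E vs. M, from −0.14 to 0.057 for *Tgfb2* in M vs. RE, and from −0.0062 to 0.46 for *Smad4*, −0.24 to 0.064 for *Fkbp1a*, −0.20 to 0.12 for *Runx1* and −0.019 to 0.40 for *Junb* in E vs. RE. The cause was not tested.

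The groups share replicate numbers, but deviations of same-numbered libraries correlated at 0.27 (E with M), 0.058 (E with RE) and 0.12 (M with RE), so the numbers were not taken to pair the libraries. A block on replicate number gave counts of 3, 3 and 0 for the 10 genes and 24, 18 and 18 for the other pathway genes, and no call on the 10 genes changed. Of the 30 levels per kilobase, 16 moved by more than 1 SD with the longest transcript as the length.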
